A study of Mus musculus with 19 samples.

Results

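The transcripts described here are 344 of the 1317 custom noncoding transcripts on a mouse expression array, or 26.1%. They were the custom transcripts whose highest mean over 7 sorted blood cell populations lay in a progenitor population and not in a mature one. A transcript was kept where its highest mean was in LSK, CMP, MEP or GMP cells and where each array of that population had at least 1 of its probes well above background. The levels themselves therefore chose the members, and the difference between progenitor and mature levels is given below as a description, with no test. Each member had 3 probes, and its level on an array is the mean over them of log2 intensity minus the 75th percentile of that array, so that 0 stands for the 75th percentile. The files name the members by assembly identifiers only, with no gene name or description. Their genome positions and probe sequences were not used here.

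The samples were bone marrow cells of C57BL/6 mice aged 8 to 12 weeks, with 1 array for each of 19 samples. The progenitors were negative for lineage markers and positive for Kit. LSK cells, which also carry Sca-1 and hold the hematopoietic stem cells and multipotent progenitors, had 3 arrays. Of the Sca-1-negative cells, common myeloid progenitors (CMP, CD16/32 low and CD34 high) had 3 arrays, megakaryocyte-erythroid progenitors (MEP, CD16/32 low and CD34 low) had 3 arrays, and granulocyte-macrophage progenitors (GMP, CD16/32 high and CD34 high) had 2 arrays. The mature stages were early erythroblasts (Ter119-positive, large, CD44 high, 2 arrays), late erythroblasts (Ter119-positive, small, CD44 intermediate, 3 arrays) and Gr1-positive granulocytes (3 arrays). The labels do not say whether the samples of a group came from separate mice, so the p-values below rest on the spread among these samples, and part or all of it may be technical.

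Long noncoding RNAs are transcripts without a long open reading frame, and many are made in few cell types and at low levels. In blood formation, multipotent cells pass through the myeloid progenitors into either the erythroid and megakaryocytic branch or the granulocytic and macrophage branch, and each step has its own transcription factors. The study placed the custom probes on the array to measure long noncoding RNAs that had been found by RNA sequencing of such cells.

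The 75th percentile of intensity was 266 to 607 on the arrays of progenitors and granulocytes and 50.1 to 81.3 on those of erythroblasts. The lowest log2 level of a probe well above background was accordingly higher on erythroblast arrays (-2.80 to -2.54) than on the others (-5.56 to -3.79). An erythroblast level of a transcript that was not well above background there is therefore only an upper bound. Of 8 genes of stem and multipotent cells, 6 were highest in LSK, among them Procr and Hlf (mean log2 levels there of 3.47 and 4.53), while Kit was highest in MEP and Ly6a in granulocytes. The erythroid factor gene Gata1 averaged 5.85 in MEP, 5.39 in CMP and 1.19 in GMP, and the granule enzyme gene Mpo was highest in GMP at 10.27. Gata1 was not called between MEP and CMP in the fit described below. Of 6 megakaryocyte-erythroid genes, 2 were highest in MEP, 3 in early erythroblasts and 1, Pf4, in CMP. Their summed log2 level was 7.12 to 7.67 in CMP and 7.49 to 7.83 in MEP, so these ranges overlapped. Of 7 GMP genes, 5 were highest in GMP and 2 in granulocytes. Ly6a, the gene of Sca-1, averaged 3.58 in LSK, -0.03 in CMP, -0.98 in MEP, 3.34 in GMP and 5.64 in granulocytes, so the GMP samples, labelled Sca-1-negative, were close to LSK in this RNA. In such bulk RNA, fewer cells that contain a transcript and less of it in each cell cannot be told apart.

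At the edge of the rule the levels of progenitors and mature cells were nearly equal. The 3 members just inside were TCONS_00342717, TCONS_00018126 and TCONS_00371457, whose highest progenitor mean exceeded the highest mature mean by 0.01, 0.01 and 0.05 on the log2 scale. The 3 custom transcripts just outside were TCONS_00088725, TCONS_00105601 and TCONS_00119695, which fell short by differences of -0.01, -0.02 and -0.02. A further 6 custom transcripts had their highest mean in a progenitor population and failed the condition on detection there. Of the remaining custom transcripts, 535 were highest in erythroblasts and 124 in granulocytes, and 314, these 6 included, were not well above background on every array of their highest population.

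LSK and GMP held most of the members, as they did of all features highest in a progenitor. LSK was the highest population for 116 members (33.7%), CMP for 35 (10.2%), MEP for 74 (21.5%) and GMP for the remaining 34.6%. Among all features of the array highest in a progenitor and detected there, the shares were 25.8%, 15.4%, 17.2% and 41.6% in that order. Among custom transcripts detected in their highest population, 34.3% were highest in a progenitor, against 45.6% of named genes and 16.0% of the intergenic noncoding regions that the catalogue part of the array carries. Most members were not far above the next population. The highest mean exceeded the second highest by a median of 0.21 on the log2 scale, by under 0.5 in 262 members and by at least 1 in 38. It exceeded the highest mature mean by a median of 1.08, by at least 2 in 78 members and by under 0.5 in 84. For 125 members every array of the highest population lay above all other arrays, and for 267 it lay above all 8 mature arrays. The rule itself favours such separation, and no share over all features stands beside these counts, so nothing is read from them. Part of this order was not measured. With values that were not well above background held at no less than the lowest such signal of their array, the last number was 223, the median excess over the highest mature mean was 0.74 and the excess was at least 2 in 47 members. For 76 members the highest mean then did not exceed the highest mature mean, so for these the array does not settle whether the mature cells held less.

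**Figure D1:**
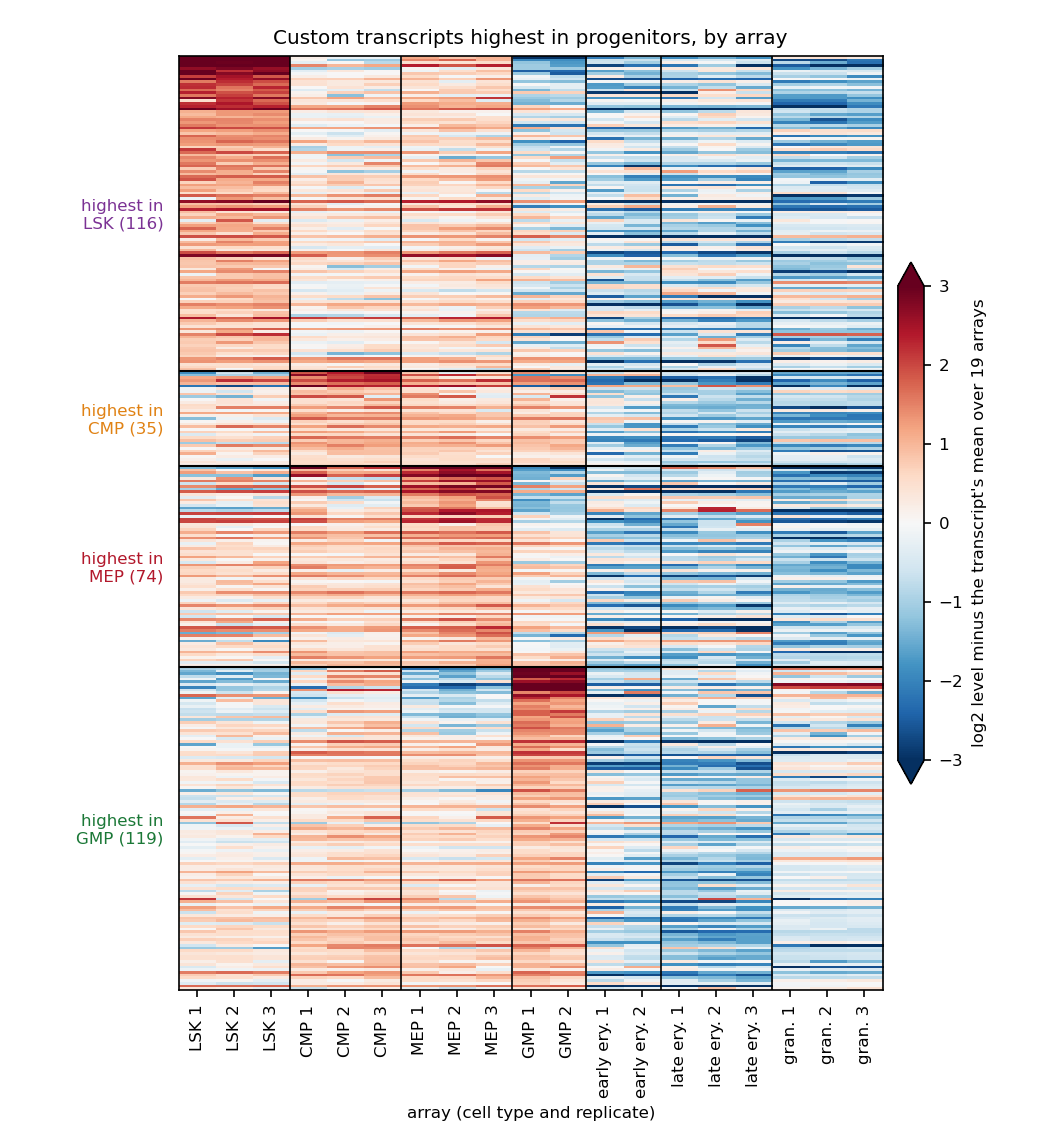
Levels of the 344 members (rows) on the 19 arrays (columns), as log2 level minus the member's own mean over all arrays, with colours limited at -3 and 3. Members are grouped by their highest population and sorted within it by the margin over the second highest. Only the top rows of each block stand out in 1 population, and many members highest in CMP or MEP are about as high in other progenitors.

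The second highest population was most often another progenitor. Of the members highest in GMP, 67 had their second highest mean in CMP. Of the 74 highest in MEP, 28 had it in CMP and 26 in LSK. Of the 116 highest in LSK, 53 had it in MEP and 16 in CMP. Members highest in CMP had the smallest margins, with a median of 0.09 and a margin of at least 1 in 1 member only, against medians of 0.32 in LSK, 0.19 in MEP and 0.20 in GMP. Among mature cells the highest mean was in granulocytes for 141 members, in early erythroblasts for 110 and in late erythroblasts for 93.

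Well above background on every array of a population were 324 members in LSK, 312 in CMP, 305 in MEP and 279 in GMP. In the mature stages the numbers were 148 in early erythroblasts, 133 in late erythroblasts and 247 in granulocytes. The erythroblast numbers stand beside the higher detection limit of those arrays, and its part in them was not tested. Many members were not silent outside progenitors, since 122 (35.5%) were well above background on all 19 arrays. Over the whole array, counted by spot and not by transcript, 19333 of 61224 non-control spots were so. Another 35 members were well above background on none of the 8 mature arrays, 20 of them highest in LSK, 8 in MEP, 5 in GMP and 2 in CMP. No share over all features stands beside this count. Some of these members were dimmer in their own population than the erythroblast detection limit, such as TCONS_00194833 at -4.34 in LSK. An equal level in erythroblasts could have gone undetected for these.

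**Figure D2:**
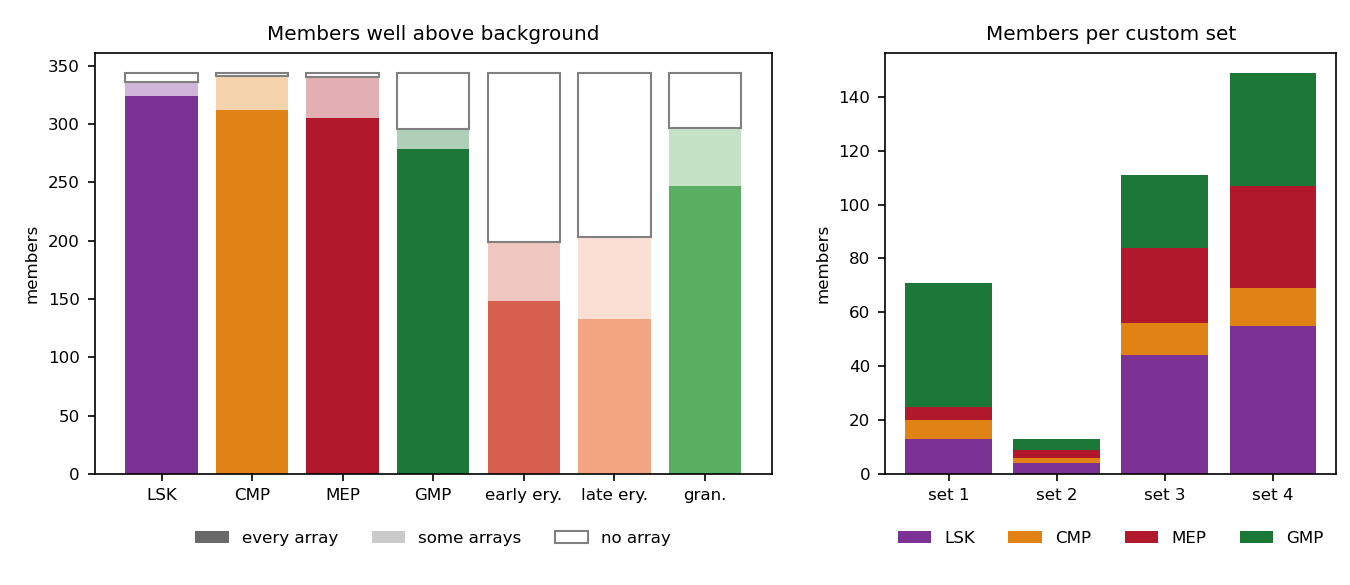
Left, members well above background on every, some or no array of each population (bars add up to 344). Right, members of each of the 4 custom probe sets by the progenitor population in which they were highest. The erythroblasts have the tallest empty part, with 145 members on no early and 141 on no late erythroblast array, and GMP fills most of the bar of set 1.

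The custom probes fall into 4 sets by a number in the probe names, called sets 1 to 4 here. Long noncoding RNAs called at 2 levels of stringency, pseudogenes and genes overlapped by small RNAs were the study's categories, and the files do not pair them with the sets. Set 1 had 71 members among 155 custom transcripts (45.8%), set 2 had 13 of 60 (21.7%), set 3 had 111 of 378 (29.4%) and set 4 had 149 of 724 (20.6%). In set 1, GMP was highest for 46 of 71 members (64.8%), while in sets 3 and 4 LSK was highest for 44 of 111 (39.6%) and 55 of 149 (36.9%). Of all features highest in a progenitor, 41.6% were highest in GMP and 25.8% in LSK. The numbers highest in GMP and LSK depended on the scaling, as given below, and these shares by set were not recomputed under other scalings. Members of set 1 were also the most broadly detected, with 48 of 71 on all 19 arrays, against 2 of 13 in set 2, 33 of 111 in set 3 and 39 of 149 in set 4. Their range over the 4 progenitor means was narrower, with a median of 0.52 on the log2 scale, against 0.78, 0.99 and 1.31 in sets 2, 3 and 4.

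The 3 probes of a member were read separately to see how far they carried the same pattern. In 227 of 344 members all 3 probes were highest in the member's own population, and in 280 all 3 were highest in a progenitor. In 8 members no single probe was highest where the mean was. The median correlation between probes of a member over the 7 population means was 0.95 as a median over members. In 17 members at least 1 pair of probes correlated below 0, so for these the 3 probes did not follow 1 pattern.

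The largest margins of the whole group were in LSK. TCONS_00371625 had log2 levels of 1.19, 0.91 and 1.14 in LSK, -2.49, -2.84 and -2.82 in CMP, -1.52, -1.81 and -1.61 in MEP, and -5.82 and -5.99 in GMP. The LSK arrays were above all others, and the transcript was well above background on no GMP or erythroblast array but on all 3 granulocyte arrays, at -2.33, -2.18 and -2.37. TCONS_00361543 had 3.26, 3.24 and 3.31 in LSK, 0.12, -0.35 and -0.18 in CMP, 1.0, 0.54 and 0.99 in MEP and -2.41 and -3.01 in GMP. Its LSK mean of 3.27 ± 0.04 (SD, n = 3) was 5.78 above its highest mature mean when late erythroblast values, well above background on 1 of 3 arrays, were held at no less than the lowest such signal. The order LSK, MEP, CMP, GMP, with no overlap of arrays between neighbours, held for both transcripts. For TCONS_00361543 the step between MEP and CMP was 0.98 ± 0.44 (SE) and was not called in the limma fit described below (adjusted p = 0.27).

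The other LSK transcripts named by their margin had the same highest and second highest progenitor. TCONS_00246154 read -0.02, -0.09 and -0.23 in LSK and -2.70, -2.40 and -3.11 in MEP, while 1 of 3 CMP arrays and no GMP, erythroblast or granulocyte array had it well above background. TCONS_00088613 averaged -0.43 ± 0.17 in LSK and -3.03 ± 0.07 in MEP (SD, n = 3 each). TCONS_00085589 was dimmer, at -2.38, -2.23 and -2.43 in LSK, and -4.96, -5.36 and -4.71 in MEP. All 3 were separated from every other progenitor array.

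Only 1 of the members highest in CMP stood clearly apart there. TCONS_00453172 had -2.34, -1.84 and -1.32 in CMP, -3.41, -4.48 and -3.78 in MEP and -2.83 and -3.68 in GMP, and it was well above background on no LSK, late erythroblast or granulocyte array. The CMP arrays lay above all others. TCONS_00045971 was shared by CMP (-0.53, -1.15 and -1.04) and MEP (-1.34, -1.01 and -1.70), whose arrays overlapped. It averaged -4.33 ± 0.18 in LSK (SD, n = 3) and was well above background on no GMP array. The other CMP transcripts named by their margin, TCONS_00380790, TCONS_00412209 and TCONS_00092135, had margins of 0.38, 0.38 and 0.33. TCONS_00412209 had means between 3.54 and 4.11 in the 4 progenitors and between -1.18 and -0.36 in the 3 mature stages.

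Among the named members highest in MEP, some were also high in CMP and others were about equal in CMP and LSK. TCONS_00060256 had 3.42, 3.83 and 3.46 in MEP and 2.90, 1.5 and 1.95 in CMP, against -1.61, -1.84 and -2.07 in LSK and -2.14 and -3.50 in GMP. The MEP arrays were above all others, and the late erythroblasts (1.42, 1.09 and 0.64) were the next after CMP. TCONS_00229280 likewise had -0.91, -0.34 and -0.37 in MEP and -1.04, -1.89 and -1.60 in CMP, and was well above background on no GMP, erythroblast or granulocyte array. Both transcripts were more than 3 log2 units lower in LSK than in CMP. Neither was called between MEP and CMP in the limma fit described below (adjusted p = 0.052 and 0.057).

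TCONS_00213182 and TCONS_00389972 had another form. TCONS_00213182 had -1.28, -0.86 and -1.04 in MEP, -1.76, -2.42 and -2.38 in CMP and -2.29, -2.66 and -2.45 in LSK. TCONS_00389972 had -2.50, -1.51 and -2.37 in MEP, -3.04, -3.29 and -3.57 in CMP and -3.17, -3.98 and -3.68 in LSK. In both, MEP stood above the other progenitors, CMP and LSK overlapped, and no GMP array was well above background. TCONS_00278077 averaged -2.96 ± 0.33 in MEP and -3.90 ± 0.61 in LSK (SD, n = 3 each), but its probes correlated at as low as 0.47 over the population means. Its difference between MEP and LSK was not called in the limma fit described below (adjusted p = 0.11).

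The named members highest in GMP differed in their granulocyte levels. TCONS_00168307 had 1.96 and 1.74 in GMP and 0.33, 0.27 and 0.34 in granulocytes, against -2.61, -1.49 and -1.31 in CMP, -2.86, -2.68 and -2.96 in LSK and -4.52, -5.21 and -4.97 in MEP. TCONS_00464357 had 0.68 and 0.56 in GMP and -1.46, -1.51 and -1.56 in granulocytes, with all CMP, LSK and MEP arrays below -3. In both, GMP lay above granulocytes and granulocytes above every other progenitor. TCONS_00166442 and TCONS_00057299 were alike in this, with GMP means of -1.51 and -1.19 and granulocyte means of -3.40 and -2.54.

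TCONS_00458615 and TCONS_00458612 were highest in GMP and second highest in CMP. TCONS_00458615 had -0.39 and -0.69 in GMP, -3.12, -2.22 and -1.95 in CMP and -4.36, -4.07 and -3.86 in granulocytes. TCONS_00458612 had -1.30 and -1.22 in GMP and -3.73, -2.81 and -2.86 in CMP, and it was well above background on no granulocyte array. The GMP arrays were above the CMP arrays in both, and in neither did granulocytes reach CMP. Their values on the 19 arrays correlated at 0.96, and the files do not say whether they come from 1 locus. TCONS_00093310 had 0.25 and 0.69 in GMP, but its other populations scattered widely, for instance -2.58 and -0.46 in early erythroblasts.

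**Figure D3:**
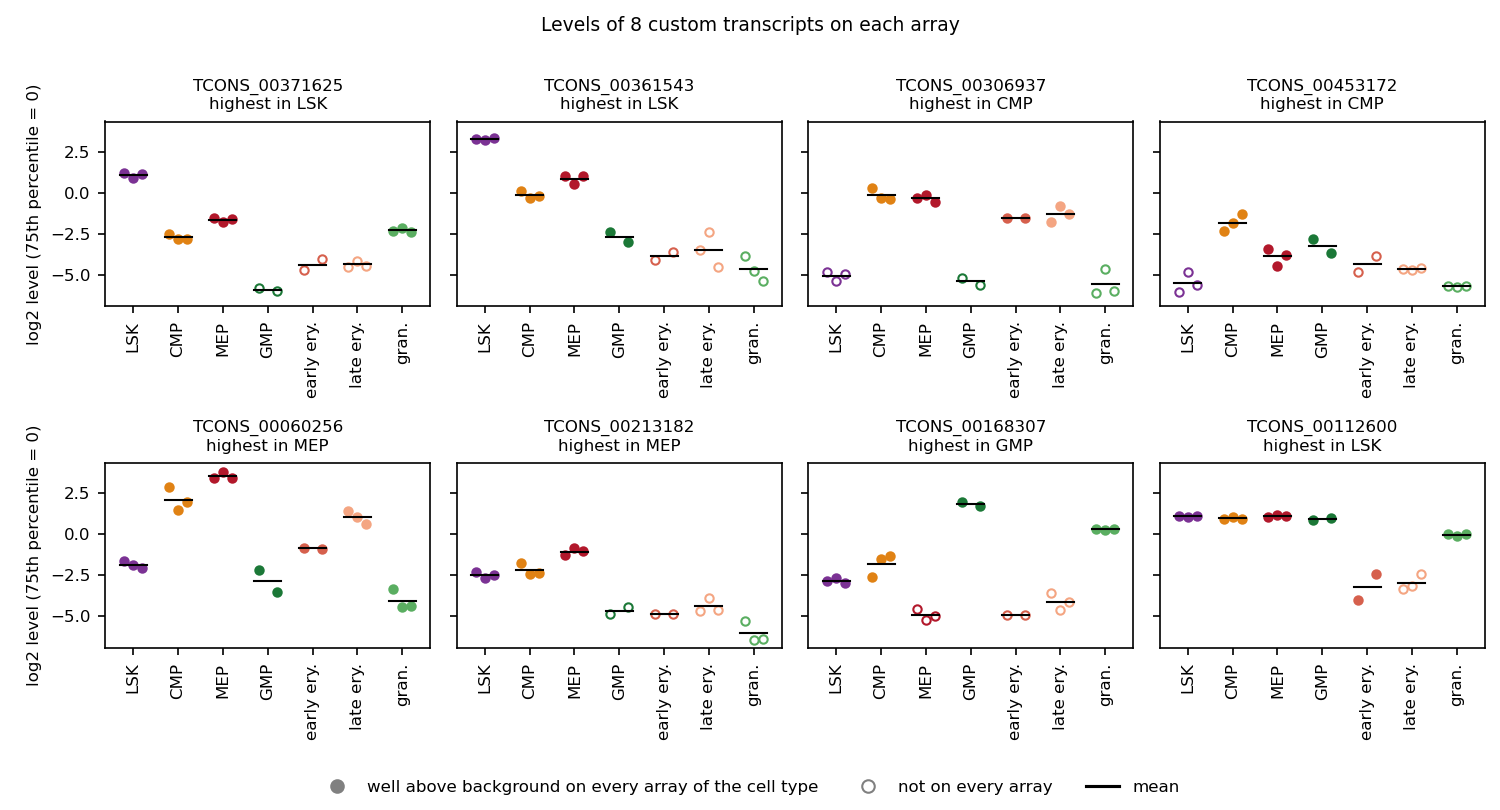
Log2 level on each array (points) and the population mean (bars) for 8 members, with open points where the transcript was not well above background on every array of the population. TCONS_00371625 and TCONS_00361543 fall in the order LSK, MEP, CMP, GMP, TCONS_00306937 and TCONS_00060256 are high in CMP and MEP together, TCONS_00168307 is high in GMP and granulocytes, and TCONS_00112600 is level over the 4 progenitors.

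Some members were level over the progenitors. The 5 with the smallest range over the 4 progenitor means were TCONS_00189927, TCONS_00112600, TCONS_00292244, TCONS_00377336 and TCONS_00169640, with ranges of 0.13 to 0.21 on the log2 scale. TCONS_00112600 had 1.15, 1.05 and 1.14 in LSK, 0.95, 1.04 and 0.97 in CMP, 1.04, 1.17 and 1.1 in MEP and 0.91 and 0.99 in GMP. Its granulocyte arrays read 0.02, -0.08 and 0.05, and its erythroblast arrays were all below -2. TCONS_00169640 averaged 1.20 in CMP and 1.14 in granulocytes, so only the erythroblasts, at -1.80 and -2.27, set it apart.

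The comparisons between progenitor populations asked which members changed on leaving the stem and multipotent compartment and on entering either branch. Differences were fitted with limma over all features of the array and all 19 arrays, and a feature was called at an adjusted p under 0.05 if every array of the higher population had it well above background. The rule set no order among LSK, CMP, MEP and GMP, but their means entered it. The members' shares called are therefore set beside those of all features tested, and nothing is read from the gap between them. Over the 4 progenitor populations, 221 of 344 members varied (64.2%), against 47.4% of all features tested. Of the members, 258 were called in at least 1 of the 6 comparisons of 2 populations, 9 in all 6 and 86 in none. Of all features tested, 57% were called in at least 1 of the 6, 0.653% in all 6 and 43% in none. All 3 probes of a called member pointed the same way, except in 2 members in MEP against GMP and in 1 member in each of the other comparisons but MEP against CMP, which had no exception. Called members did not overlap between the arrays of the 2 populations in 163 of 165 cases for CMP against LSK, 133 of 135 for MEP against LSK, 196 of 197 for GMP against LSK and all cases of the other comparisons. Called features of the whole array were much the same in this, with no overlap in at least 96.8% of them, and features called without overlap made up 35.8% of those tested in CMP against LSK, 4.51% in MEP against CMP, 18.1% in GMP against CMP, 31.1% in MEP against GMP, 29.3% in MEP against LSK and 43.9% in GMP against LSK. Where a named member was well above background on only some arrays of the lower population, its difference is also given with the remaining arrays held at no less than their lowest signal well above background, called the held difference here and chosen after seeing the data.

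**Figure D4:**
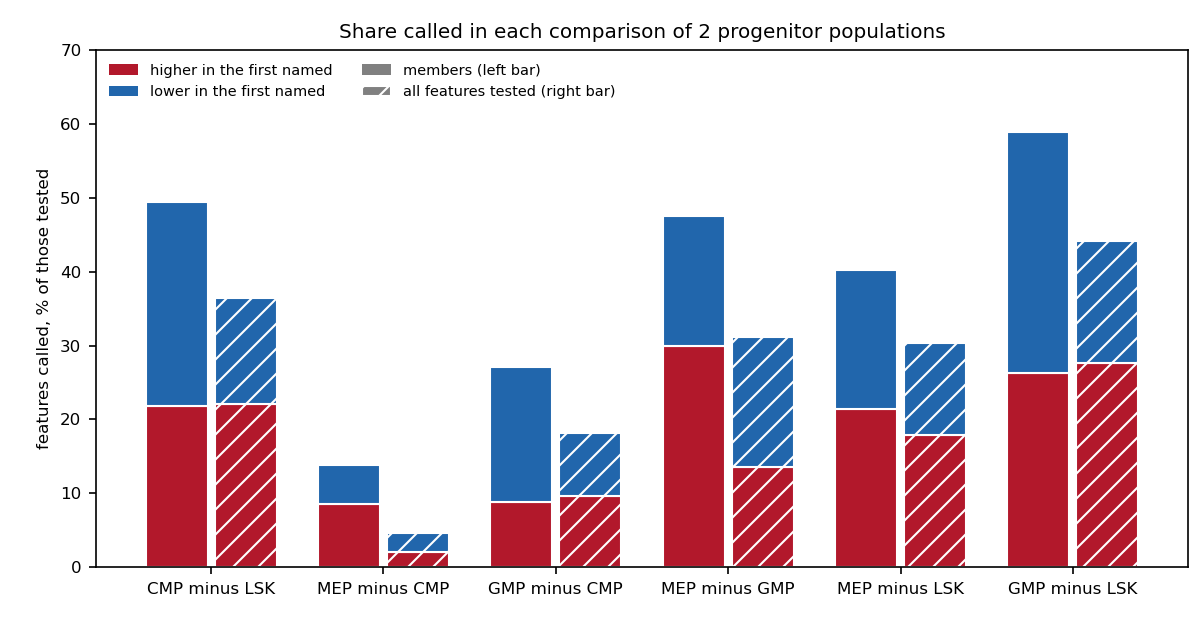
Percentage of the tested features called in each comparison of 2 progenitor populations, for members (left bar) and for all features of the array (hatched right bar), split into those higher and those lower in the population named first. The bars of MEP minus CMP are the shortest (13.8% of members, 4.54% of all features) and those of GMP minus LSK the tallest (59.0% and 44.2%).

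Between CMP and LSK, 165 of the 334 members tested were called (49.4%), against 36.6% of all features. Of these, 73 were higher and 92 lower in CMP. The shares of all features were 22.1% higher and 14.4% lower. The median difference was 0.06 in members and 0.14 in all features, and 31 members rose and 50 fell by at least 1 on the log2 scale (9.28% and 15.0% of those tested), against 5.75% and 9.11% of all features. TCONS_00306937 was higher in CMP (0.27, -0.30 and -0.37) than in LSK (-4.86, -5.40 and -4.94, 1 of 3 arrays well above background), by 4.93 ± 0.34 (SE, adjusted p = 8.4e-08), with a held difference of 4.70. TCONS_00060256 was higher in CMP by 3.96 ± 0.40 (SE, adjusted p = 2.6e-06), and TCONS_00453172, well above background on no LSK array, by at least 9.4-fold (adjusted p = 2.6e-06). TCONS_00246154, TCONS_00371625 and TCONS_00085589 fell by 4.75 ± 0.27, 3.80 ± 0.17 and 3.73 ± 0.18 in CMP (SE, adjusted p = 1.1e-08, 2.4e-09 and 2.9e-09). In CMP, TCONS_00246154 was well above background on 1 and TCONS_00085589 on 2 of 3 arrays, and their held differences were -4.39 and -3.20. The split into higher and lower depended on the scaling. With the 75th percentile taken over probes detected on all arrays, 25.4% of the called members were higher in CMP, against 44.2% as reported here, and the median of all features was then -0.19. Marker lists of other cells also moved between these samples. The summed log2 level of 6 granulocyte genes was 5.77 to 6.66 in CMP and 8.89 to 9.13 in LSK, and that of 5 T and NK cell genes 4.73 to 5.04 in CMP and 5.42 to 5.75 in LSK. For 5 mast cell, basophil and eosinophil genes the sums were 4.17 to 4.59 in CMP and 5.23 to 5.55 in LSK. For 6 macrophage genes they were at most 0.23 in CMP and 0.75 to 1.04 in LSK. The 6 erythroblast genes went the other way, with sums of 5.59 to 5.70 in CMP and 4.44 to 4.85 in LSK. The sums of 5 B cell genes overlapped. The part of these lists in the result was not tested.

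MEP and CMP differed least. Of 326 members tested, 45 were called (13.8%), 28 higher and 17 lower in MEP, against 4.54% of all features, 2.01% higher and 2.53% lower. The members' median difference was 0.05, and that of all features was -0.02. TCONS_00246154, described above as an LSK transcript, was higher in MEP (-2.70, -2.40 and -3.11) than in CMP (-4.07, -5.29 and -5.22), by 2.12 ± 0.27 (SE, adjusted p = 0.00085). In CMP 1 of 3 arrays was well above background, the held difference was 1.77, and the arrays of MEP and CMP did not overlap. TCONS_00278077 and TCONS_00360077 were higher in MEP by 2.07 ± 0.42 and 1.78 ± 0.30 (SE, adjusted p = 0.012 and 0.0046), each with 1 of 3 CMP arrays well above background and with held differences of 1.68 and 0.83. Both calls were lost under some of the alternatives run, with the direction unchanged. TCONS_00168307, TCONS_00130525 and TCONS_00458615, all highest in GMP, fell by 3.09 ± 0.30, 2.87 ± 0.28 and 2.41 ± 0.32 in MEP (SE, adjusted p = 0.00028, 0.00028 and 0.0013). In MEP, TCONS_00168307 was well above background on 2 and TCONS_00458615 on 1 of 3 arrays, with held differences of -2.70 and -2.04. TCONS_00130525 had -3.76, -4.61 and -3.78 in MEP and -1.82, -0.83 and -0.88 in CMP, with no overlap. The count moved with single arrays. It was 21 without CMP replicate 2, 23 without CMP replicate 3, 25 without MEP replicate 2 and 28 without MEP replicate 3. It was 16 on the authors' series values, of which 43.8% were higher in MEP, and 20 with the brightest probe of each transcript. With the percentile over detected probes, 75.5% of the called members were higher in MEP, against 62.2% as reported here. The summed level of 7 GMP genes was 8.40 to 9.13 in MEP and 9.58 to 10.33 in CMP. The macrophage genes summed to -1.03 to -0.83 in MEP and at most 0.23 in CMP, and the T and NK cell genes to 5.09 to 5.47 and 4.73 to 5.04. For 6 erythroblast genes the sums were 4.72 to 5.16 in MEP and 5.59 to 5.70 in CMP, while the granulocyte and B cell genes overlapped. Their part in the result was not tested.

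GMP differed from CMP in 86 of 317 members (27.1%), against 18.1% of all features. Lower members were in the majority, with 28 higher and 58 lower in GMP, and the shares of all features were 9.6% and 8.49%. The median difference was -0.03 in members and 0.07 in all features. TCONS_00057299 was higher in GMP (-1.34 and -1.04) than in CMP (-6.87, -5.46 and -5.22, 1 array well above background), by 4.66 ± 0.43 (SE, adjusted p = 1.9e-06), with a held difference of 3.84. TCONS_00464357 and TCONS_00168307 were higher by 4.25 ± 0.30 and 3.65 ± 0.34 (SE, adjusted p = 1e-07 and 1.9e-06). By fitted difference, the 3 largest decreases in GMP were in TCONS_00306937, TCONS_00060256 and TCONS_00045971. TCONS_00306937 was at least 14.7-fold lower and TCONS_00045971 at least 8.6-fold lower in GMP than in CMP (adjusted p = 1.6e-07 and 7.3e-09), and neither was well above background on a GMP array. TCONS_00060256 was measured in both and fell by 4.94 ± 0.44 in GMP (SE, adjusted p = 1.3e-06). Without GMP replicate 2 the count was 54, on the authors' series values 53, and with the brightest probe 54. Of the called members, 59.2% were higher in GMP with normexp background correction and 22.2% with the percentile over detected probes, against 32.6% as reported here. The summed level of 6 granulocyte genes was 8.97 to 9.42 in GMP and 5.77 to 6.66 in CMP, and that of 5 mast cell, basophil and eosinophil genes 7.23 to 7.65 in GMP and 4.17 to 4.59 in CMP. The 5 T and NK cell genes summed to 6.75 to 7.31 in GMP and 4.73 to 5.04 in CMP, and 6 macrophage genes to 1.90 to 3.16 in GMP and at most 0.23 in CMP. For 5 B cell genes the sums were 3.80 to 4.06 in GMP and 2.94 to 3.53 in CMP. The 6 erythroblast genes went the other way, at 3.03 to 3.53 in GMP and 5.59 to 5.70 in CMP. Their part in the result was not tested.

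The branch progenitors, MEP and GMP, differed in 154 of 324 members (47.5%), against 31.2% of all features. Of these, 97 were higher and 57 lower in MEP, while of all features 13.5% were higher and 17.6% lower. The median difference was 0.08 in members and -0.08 in all features. By at least 1 on the log2 scale, 66 members were higher and 35 lower in MEP (20.4% and 10.8% of those tested), against 8.56% and 8.54% of all features. These counts, like all counts called here, use measured values, also where a population was not well above background. Well above background on no GMP array were 48 members, against 4 on no MEP array. With such values held as above, some named members no longer differed by 1, so part of these counts was not measured. TCONS_00060256 was 6.39 ± 0.44 higher in MEP (SE, adjusted p = 5.4e-08). TCONS_00306937 was at least 12.6-fold and TCONS_00229280 at least 11.1-fold higher in MEP than in GMP (adjusted p = 1.4e-07 and 2.8e-08). In the opposite direction, TCONS_00168307 fell by 6.75 ± 0.34 and TCONS_00464357 by 5.67 ± 0.30 in MEP, each with 2 of 3 MEP arrays well above background (SE, adjusted p = 2.7e-09 and 3.8e-09). Their held differences were -6.35 and -5.38. TCONS_00057299 was at least 11.4-fold lower in MEP than in GMP (adjusted p = 2.5e-07). The split was 77.1% higher in MEP with the percentile over detected probes and 44.9% with normexp, against 63.0% as reported here. The summed level of 6 megakaryocyte-erythroid genes was 7.49 to 7.83 in MEP and 3.02 to 3.54 in GMP. The granulocyte genes summed to 5.29 to 6.38 in MEP and 8.97 to 9.42 in GMP, the mast cell, basophil and eosinophil genes to 4.17 to 4.47 in MEP and 7.23 to 7.65 in GMP, the T and NK cell genes to 5.09 to 5.47 in MEP and 6.75 to 7.31 in GMP, and the macrophage genes to -1.03 to -0.83 in MEP and 1.90 to 3.16 in GMP. The B cell genes summed to 2.74 to 3.05 in MEP and 3.80 to 4.06 in GMP. For 4 endothelial and stromal genes the sums were -0.21 to 0.42 in MEP and 0.51 to 0.83 in GMP. The erythroblast genes were higher in MEP, at 4.72 to 5.16, against 3.03 to 3.53 in GMP. Their part in the result was not tested.

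MEP and LSK differed in 135 of 336 members (40.2%), against 30.2% of all features, with 72 higher and 63 lower in MEP. Of all features, 17.9% were higher and 12.4% lower. TCONS_00060256, TCONS_00306937 and TCONS_00229280 were higher in MEP by 5.41 ± 0.40, 4.72 ± 0.34 and 4.5 ± 0.27 (SE, adjusted p = 1.9e-07, 1.9e-07 and 2.8e-08). In LSK, TCONS_00306937 was well above background on 1 and TCONS_00229280 on 2 of 3 arrays, with held differences of 4.48 and 4.35. TCONS_00371625, TCONS_00085589 and TCONS_00246154 fell by 2.73 ± 0.17, 2.66 ± 0.18 and 2.62 ± 0.27 in MEP (SE, adjusted p = 4.7e-08, 7.3e-08 and 4.5e-06). Relative to CMP, TCONS_00371625 was higher in MEP by 1.07 ± 0.17 (SE, adjusted p = 0.0037), as was TCONS_00246154 above. TCONS_00085589 lay close to the detection limit in both MEP and CMP. On the authors' series values 77 members were called and with the brightest probe 87. With the percentile over detected probes, 32.6% of the called members were higher in MEP, against 53.3% as reported here. The granulocyte genes summed to 5.29 to 6.38 in MEP and 8.89 to 9.13 in LSK. The mast cell, basophil and eosinophil genes summed to 4.17 to 4.47 in MEP and 5.23 to 5.55 in LSK. Sums of the macrophage genes were -1.03 to -0.83 in MEP and 0.75 to 1.04 in LSK. Those of the B cell genes were 2.74 to 3.05 in MEP and 3.39 to 3.54 in LSK, and the erythroblast genes overlapped. The part of these lists in the calls was not tested.

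GMP and LSK differed in the most members, 197 of 334 (59.0%), against 44.2% of all features. Of these, 88 were higher and 109 lower in GMP, while of all features 27.7% were higher and 16.5% lower. The median difference was -0.003 in members and 0.24 in all features. TCONS_00057299 was at least 14.7-fold higher in GMP than in LSK (adjusted p = 7e-07). TCONS_00464357 and TCONS_00168307 were higher in GMP by 4.72 ± 0.30 and 4.68 ± 0.34 (SE, adjusted p = 2.1e-08 and 7.6e-08). TCONS_00371625 was at least 34.1-fold lower and TCONS_00246154 at least 14.9-fold lower in GMP than in LSK (adjusted p = 6.1e-12 and 2.2e-09), and TCONS_00361543 fell by 5.98 ± 0.49 in GMP (SE, adjusted p = 2.5e-07). Of the called members, 23.3% were higher in GMP with the percentile over detected probes and 59.7% with normexp, against 44.7% as reported here. With the detected-probe percentile all features had a median of -0.23. The mast cell, basophil and eosinophil genes summed to 7.23 to 7.65 in GMP and 5.23 to 5.55 in LSK. Sums of the T and NK cell genes were 6.75 to 7.31 in GMP and 5.42 to 5.75 in LSK. Those of the macrophage genes were 1.90 to 3.16 in GMP and 0.75 to 1.04 in LSK, and of the B cell genes 3.80 to 4.06 and 3.39 to 3.54. The erythroblast genes were lower in GMP, at 3.03 to 3.53, against 4.44 to 4.85 in LSK. The part of these lists in the calls was not tested.

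By probe set, and as a description only, the calls were distributed as follows. In GMP against LSK, where 44.2% of all features were called, 41 of 71 members of set 1 were called, 32 higher and 9 lower in GMP. In set 3, 64 of 107 were called, 19 higher and 45 lower, and in set 4, 86 of 143, 32 higher and 54 lower. These splits turned with the scaling. With the percentile over detected probes set 1 had 10 higher and 14 lower in GMP, and with normexp set 3 had 30 higher and 28 lower and set 4 had 44 higher and 38 lower. In MEP against GMP, with 31.2% of all features called, set 1 had 17 of 71 called, 4 higher and 13 lower in MEP, and set 3 had 46 of 100 called, 36 higher and 10 lower. With the percentile over detected probes set 1 had 9 higher and 6 lower in MEP. In MEP against CMP, with 4.54% of all features called, 26 of 141 members tested in set 4 were called. In sets 1, 2 and 3 the calls were 7 of 71, 2 of 13 and 10 of 101.

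Arrays of several populations lay on the same slides, so differences could also be read within a slide, with 1 array of each population. Since hardly any called member overlapped between populations, the direction within a slide follows from the call, and only the size of the difference is given. TCONS_00306937 was higher in CMP than in LSK by 4.64 and 4.49 on the 2 slides that held both. TCONS_00246154 was higher in MEP than in CMP by 1.37, 2.89 and 2.11 on 3 slides, so this difference varied between slides. TCONS_00464357 was higher in GMP than in CMP by 3.79 on 1 slide, and higher in GMP than in LSK by 4.67 and 4.76 on 2 slides. TCONS_00060256 was higher in MEP than in GMP by 7.33 on 1 slide, and higher in MEP than in LSK by 5.90 and 5.07 on 2 slides.

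Known noncoding RNA genes give a yardstick from the catalogue part of the array. Of a list of such genes, 28 were on the array. Between CMP and LSK 15 of 26 tested were called, 9 higher and 6 lower in CMP, and between MEP and CMP 1 of 24. Between GMP and CMP 4 of 24 were called, between MEP and GMP 6 of 22, between MEP and LSK 13 of 25, and between GMP and LSK 9 of 26. Of all features tested, 36.6%, 4.54%, 18.1%, 31.2%, 30.2% and 44.2% were called in these 6 comparisons, in the order given. Pvt1, the noncoding neighbour of Myc, averaged 0.77 ± 0.32 in CMP and -1.16 ± 0.18 in LSK (SD, n = 3 each) and was called higher in CMP. Snhg3, a host gene of small nucleolar RNAs, averaged 4.81 ± 0.12 in CMP and 3.13 ± 0.04 in LSK (SD, n = 3 each) and was called higher in CMP as well. Morrbid, known in mice as a regulator of short-lived myeloid cells, averaged -1.40 ± 0.01 in GMP (n = 2) and -4.10 ± 0.49 in CMP (n = 3, SD) and was called higher in GMP. Meg3, an imprinted RNA gene, was well above background on all LSK arrays, at a mean of -2.74, and on no CMP or MEP array.

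Each of the members named by its margin was set beside the named genes whose values on the 19 arrays were most like it. These correlations describe how arrays of 7 populations order 2 features, and they share the arrays and their scaling. TCONS_00371625 was most like Cd200 (r = 0.98), TCONS_00246154 like Fam181b, Cyp7b1 and Hoxa10 (0.99 each to 2 decimals) and TCONS_00361543 like Il17re (0.99), and these genes were themselves highest in LSK. TCONS_00045971 was most like Aldh1a7 (0.98), which was highest in CMP, and Atp1b2 and Car1 (0.97 each), which were highest in MEP. TCONS_00213182 was most like Slc22a3 (0.98), TCONS_00229280 like Zg16 (0.98) and TCONS_00389972 like Amigo2 (0.95) and Slamf1 (0.94), all highest in MEP. TCONS_00464357 was most like Selenom (0.97) and TCONS_00093310 like Cftr (0.98), both highest in GMP. TCONS_00453172, TCONS_00278077 and TCONS_00458612 had no such close named gene, with Il31ra at 0.89, Fam184a at 0.88 and Upk3bl at 0.90 as the nearest. The highest population was not always shared. Fam184a was highest in LSK and TCONS_00278077 in MEP. TCONS_00380790 and TCONS_00412209, both highest in CMP, were most like Gdf9 (0.98, highest in GMP) and Exo5 (0.99, highest in MEP).

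The number of members highest in each progenitor depended on the processing. With the percentile over detected probes the rule kept 340 custom transcripts, 324 of them among the 344, and 183 were highest in LSK and 55 in GMP. With quantile normalization it kept 398, of which 338 were among the 344. With normexp background correction it kept 200, of which 181 were among the 344, with 48 highest in LSK, 43 in CMP, 40 in MEP and 69 in GMP. The rank of LSK and GMP as the most frequent highest population thus turned with the scaling.

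**Figure D5:**
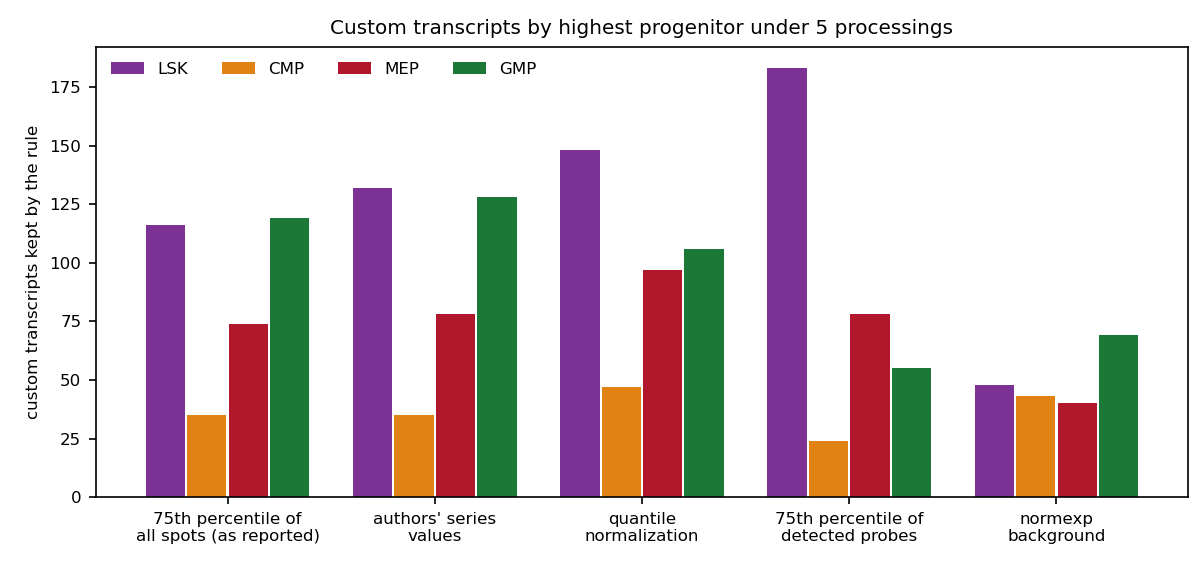
Number of custom transcripts kept by the rule under each of 5 ways of processing the arrays, by the progenitor population in which they were highest. LSK and GMP are close as reported (33.7% and 34.6% of members), LSK leads with the percentile over detected probes (183 and 55), and GMP leads with normexp (48 and 69).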

How the data were processed

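Single-colour array values of 19 samples of 7 populations were used. The authors read the arrays with Agilent Feature Extraction 11.5.1.1, per the file headers, under protocol GE1_1105_Oct12. This software subtracts the background, flags spots and gave the deposited intensity values, and its annotation names mouse build mm9. Cy5 is the dye in the labels, whereas the single channel of the files is called green. The authors' series values, used as an alternative, are those spots' intensity after background subtraction. No table gave values in log units.

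Here the processed signal was taken to log2, the 75th percentile of non-control spots was subtracted per array, spots with an outlier flag and 1319 control spots of 62543 were left out, and spots, then probes, were averaged. This gave 38391 features from 59628 probes. No spot of a custom transcript was saturated. Catalogue features were named through RefSeq accessions of GRCm38.p6, for names only. This named 27235 of 55681 catalogue probes, and the rest carry the files' own names.

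All 19 arrays entered 1 fit of population means (lmFit and eBayes of limma 3.58.1, run in R 4.3.3), with Benjamini-Hochberg adjustment over the features tested in each comparison. Tested were features that all arrays of 1 or more of the compared populations measured well above background. The fit was tested on simulated data, where its share of false calls was somewhat above the nominal rate, so the counts called may hold more false calls than the threshold states. Where a population was well above background on no array, the fold is a lower bound (at least N-fold). On each of its arrays the dim population then took its own value or the lowest level of any probe well above background, whichever was higher. The adjusted p beside such a bound, or beside a held difference, belongs to the fitted difference of the measured values. It does not test the bound or the held difference.

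Named were, for each progenitor, the 5 members with the largest margin over the second highest population; for each comparison, up to 3 called members in each direction with the largest differences and no overlap; the 3 nearest on either side of the rule's boundary; the 5 with the smallest range over progenitors; for margin members, the most alike features; and up to 6 known noncoding RNAs. Not all of these are printed. The members and lists were chosen with earlier results of these data known. The number of arrays limits the precision, with 2 in GMP and in early erythroblasts. Neighbouring genes were not analysed here, for lack of positions. Alternatives were background correction, normalization, percentile, source of values, probe choice, outlier spots, detection filter, blocks for slide and replicate number, the 11 progenitor arrays alone, and leaving out each array.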

Additional observations from a re-analysis of the deposited data

How the results depend on the processing

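The rule kept 333 to 350 custom transcripts when 1 array was left out, with 111 to 122 highest in LSK, 30 to 47 in CMP, 73 to 83 in MEP and 103 to 133 in GMP. With normexp background correction, run on median signals because mean signals were not in the files used and so chosen after seeing the data, it kept 200, with 48 highest in LSK, 40 in MEP and 69 in GMP. With the percentile over detected probes, 183 were highest in LSK and 55 in GMP. With 1 array left out, the members called were 136 to 174 for CMP against LSK, 21 to 53 for MEP against CMP, 54 to 92 for GMP against CMP, 117 to 161 for MEP against GMP, 99 to 142 for MEP against LSK, 154 to 206 for GMP against LSK and 193 to 232 over the 4 progenitors. On the authors' series values, with low values set to each column's 1st percentile (chosen after seeing the data), the counts were 108 for CMP against LSK, 16 for MEP against CMP, 53 for GMP against CMP and 77 for MEP against LSK. With the brightest probe they were 20 for MEP against CMP, 54 for GMP against CMP and 87 for MEP against LSK. The cause of these shifts was not tested. The other counts of members kept or called, both directions together, stayed within 1.5 times under the alternatives run. Of 348 recomputed counts in 1 direction, 27 moved further. For CMP against LSK, 43 were higher with the percentile over detected probes, against 73 as reported, and 54 lower on the authors' series values and 59 with the brightest probe, against 92. For GMP against CMP, 61 were higher with normexp, 17 on the authors' series values and 18 without GMP replicate 1, against 28, and 35 lower without GMP replicate 2, 36 on the authors' series values and 32 with the brightest probe, against 58. For MEP against GMP, 61 were higher with normexp, against 97, and 36 lower with the percentile over detected probes, against 57. For MEP against LSK, 43 were higher with that percentile and 45 on the authors' series values, against 72, and 32 lower on those values and 39 with the brightest probe, against 63. For GMP against LSK, 45 were higher with that percentile, against 88. For MEP against CMP, where the remaining moves lay, the higher fell to 7 to 16, against 28, and the lower to 7 to 9, against 17.

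Correlations of deviations between same-numbered arrays of different populations ranged from -0.34 to 0.24. Arrays with different numbers gave -0.30 to 0.34 on different slides and 0.04 to 0.39 on the same slide. The deviations of so few arrays from their population mean cancel out, so these correlations cannot show whether same-numbered samples shared mice. With the number as a replicate block, the counts were 159, 42, 79, 144, 130 and 192 in the order CMP against LSK, MEP and GMP against CMP, MEP against GMP, and MEP and GMP against LSK, and 212 over the 4 progenitors. With slide as a block they were 165, 43, 71, 131, 127 and 199 in that order, and 216 over the 4 progenitors. Of the recomputed differences of named members, 1034 kept their direction and their side of the threshold, and 9 missed the threshold with the direction unchanged, all in MEP against CMP. TCONS_00278077 missed it under 7 of these alternatives and TCONS_00360077 under 2. Signal over background limits the erythroblast levels most.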
